A study of Mus musculus with 48 samples.

Results

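The genes described here are 9 core genes of the Hippo pathway, namely the DNA-binding factors Tead1, Tead2, Tead3 and Tead4, their coactivators Yap1 and Wwtr1 (the gene of TAZ), the kinases Lats1 and Lats2, and the scaffold gene Amotl2. They were listed by symbol, though with earlier results of these data known. All 9 were present among the 22173 genes with counts, the 13682 genes with FPKM values and the 20448 genes kept in the 10x data. All samples came from mice of the C57BL/6 strain. Gonadal somatic cells taken at E12.5, E13.5 and E16.5 from gonads labelled female, and somatic cells of the ovary at 6 weeks of age (P6w), had 2 bulk libraries per stage. Germ cell libraries of the series were not analysed here. Most of the other bulk libraries were female embryonic stem cells put on fibronectin to become gonadal somatic cell-like cells (GSCLCs). They were grown without a compound (Con), with vitamin C (Vc), with AM580, an agonist of the retinoic acid receptor alpha, or with both (V580), for 24 h or 48 h (2 libraries each). V580 cultures were also taken on days 4, 6, 8 and 10 (D4 to D10, 3 libraries each) and set beside E12.5_GC, 3 libraries of the SSEA1-negative cells of E12.5 female gonads. A single 10x sample held V580 cells of day 6. GSCLCs are defined by their treatment and, before aggregation with germ cells, by removal of SSEA1-positive cells, and not by a marker of gonadal identity.

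Hippo signalling controls whether Yap1 and Wwtr1 stay in the cytoplasm or enter the nucleus. When the pathway is active, the kinases Lats1 and Lats2, helped by scaffolds such as the angiomotins, phosphorylate both coactivators and hold them out of the nucleus. Otherwise the coactivators bind a Tead factor, which by itself hardly activates transcription, and switch on genes such as Ccn1 and Ccn2, which encode secreted matricellular proteins, and Ankrd1, which encodes an ankyrin repeat protein. Lats2 and Amotl2 are themselves known targets of Yap1, so that they are both inhibitors and readouts of the pathway. RNA levels do not show how much of either coactivator is phosphorylated or nuclear. In the gonad, the pathway is known for its role in the growth of ovarian follicles and in granulosa cells.

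Some facts of the libraries touch every result. The stage libraries held 12694769 to 22259044 counts. As recovered from the FPKM values and rounded, the treatment libraries held 16400000 to 22300000 reads and the D4 to D10 and E12.5_GC libraries 19600000 to 28300000 reads. The labels do not say that replicates were separate cultures or animals, so p values measure the spread between libraries, which may be technical. Replicates of E12.5_GC stood apart from each other, with a chi-square per degree of freedom of 55.94 to 110.96, against 1.77 to 11.21 within the groups of induced cells. The third E12.5_GC library was the highest of its group for Tead1, Tead4, Yap1, Wwtr1, Lats1, Lats2 and Amotl2. The E16.5 replicates also differed more (37.88) than those of E12.5, E13.5 and P6w (6.02 to 6.93), and by the labels the second E16.5 library and both P6w libraries carried lane code 1 and the others lane code 5. Both E12.5 stage libraries went against their label of female gonads: 4 Y-linked genes (Ddx3y, Eif2s3y, Kdm5d and Uty) summed to 205 and 170 counts there, against 0 to 5 in each of the other 6 stage libraries. Amh, which Sertoli cells express at that age, had 231 and 159 counts in them and 8 to 36 at E13.5 and E16.5, while the P6w libraries, from an age at which granulosa cells express it, had 1923 and 817. These genes were looked at after values had been seen, and they were not analysed in the FPKM table. The comparisons of E16.5 with E13.5 and of P6w with E16.5 use no E12.5 library.

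Markers of other cell types moved with the groups. All 6 erythroid genes searched were at 1 CPM (counts scaled to the size of the library) or more in the embryonic stages and their sum was lowest in the E12.5 libraries (2820 to 3260 CPM) and higher in those of E13.5 (12300 to 14200) and E16.5 (9840 to 13200), while the P6w libraries had 234 to 262. Of 6 liver genes, all were at 1 CPM or more at E13.5, where they summed to 161 to 162 CPM, against 4.44 to 4.72 CPM at the stage before and 2.20 to 4.37 CPM at the stage after. At P6w, 2 of the 6 were at 1 CPM or more, with a sum of 125 to 137 CPM, while Alb, Serpina1b and Ttr were at 0. The 6 markers of adult granulosa cells summed to 36600 to 36700 CPM at P6w and to 131 to 257 in the embryonic stages. In the FPKM table, 3 erythroid genes were measured and summed to 1040 to 4430 in E12.5_GC, against at most 0.739 in any induced library, in several of which Hbb-bs was at 0. The 6 embryonic granulosa markers were at 1 FPKM or more in all V580 groups from D4 on, but their sum was 66.2 to 123 FPKM there and 505 to 613 in E12.5_GC. The sum of 6 pluripotency markers went from 1330 to 1420 FPKM in Con at 24 h to 4.88 to 5.53 on D10, interstitial markers went from 71.2 to 82.6 on D4 to 1300 to 1620 on D10, and mesothelial markers from 172 to 200 on D4 to 375 to 411 on D10. The part of these cells in the results below was not tested, and in bulk RNA fewer cells of a type and less RNA per cell cannot be told apart.

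Tead factors bind the letters GGAATG, or CATTCC on the other strand. RefSeq promoter windows of 300 bases (build GRCm38.p6, 250 bases before and 50 after a start site) were searched for these letters on both strands. Of 32851 windows of the genome, 4817 (14.7%) held at least 1 match and 1.36% held 2 or more. There were entries for 7 of the 9 genes, with 11 windows in all, and 7 of these windows held a match. Windows of Tead3 and of Wwtr1 overlap, and the matches of Wwtr1 at -170 and -136 are the same letters. The 7 of 11 therefore cannot be set against the 14.7%. The windows of Ankrd1 (chr19:36119795-36120094, minus strand), Ccn1 (chr3:145649936-145650235, minus strand) and Amotl2 (chr9:102717554-102717853, plus strand) are shown because each of these 3 genes was called higher under both AM580 and V580 at 48 h, a choice made after values had been seen. Yap1 was called higher under both as well, and its window, with a match at -141, is not shown. Capitals mark the searched letters.

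Ankrd1: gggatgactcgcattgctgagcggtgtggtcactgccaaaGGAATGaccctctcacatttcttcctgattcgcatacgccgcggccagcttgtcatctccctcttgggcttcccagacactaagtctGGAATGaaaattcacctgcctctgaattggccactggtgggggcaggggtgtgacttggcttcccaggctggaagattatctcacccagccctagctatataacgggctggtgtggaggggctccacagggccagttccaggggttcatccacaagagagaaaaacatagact
Ccn1: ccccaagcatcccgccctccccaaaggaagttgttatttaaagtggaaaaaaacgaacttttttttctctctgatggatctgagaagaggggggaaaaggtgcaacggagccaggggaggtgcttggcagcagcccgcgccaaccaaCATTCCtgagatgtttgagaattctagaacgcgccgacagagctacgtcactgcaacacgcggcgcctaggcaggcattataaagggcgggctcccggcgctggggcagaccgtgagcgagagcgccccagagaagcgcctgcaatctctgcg
Amotl2: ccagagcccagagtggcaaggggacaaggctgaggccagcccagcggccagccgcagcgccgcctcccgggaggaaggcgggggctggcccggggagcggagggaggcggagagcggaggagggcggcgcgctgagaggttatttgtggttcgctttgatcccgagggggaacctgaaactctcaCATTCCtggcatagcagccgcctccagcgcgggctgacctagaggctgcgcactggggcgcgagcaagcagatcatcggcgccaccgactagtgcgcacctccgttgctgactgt

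Counted from the start site, the matches began at -210 and -123 in Ankrd1, at -103 in Ccn1 and at -65 in Amotl2. A window of Tead3 (chr17:28350551-28350850, minus strand) held 3 matches, at -123, -114 and 3. A match is a run of letters in a window, not a measured binding site.

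Among the Tead factors, Tead2 dominated the gonadal somatic cells at every stage. Per length of all exons of a gene together, it made up 90.6% ± 0.69 (SD, n = 2) of the summed RPKM of the 4 genes at E12.5. It made up 95.9% ± 0.766 at E13.5, 88.3% ± 3.94 by E16.5 and 94.7% ± 0.328 in P6w cells. The sum of the 4 was 70.3 RPKM at E12.5 and 72.6 RPKM at E13.5, and it was 41.4 RPKM at E16.5 and 40.1 RPKM at P6w. In CPM, Tead2 stood at 291 and 319 in the E12.5 pair, 330 and 336 in the E13.5 pair, 144 and 208 in the E16.5 pair and 190 and 174 in the P6w pair. All 4 libraries of E12.5 and E13.5 lay above all 4 of the later stages.

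Tead1 swung between stages. It was at 47.3 and 45.4 CPM in the E12.5 pair, 9.90 and 10.2 in the E13.5 pair, 32.9 and 22.0 in the E16.5 pair and 17.4 and 16.6 in the P6w pair, without overlap between any stages. Tead3 was at 10.0 and 11.5 CPM in the E12.5 pair, 13.2 and 8.95 in the E13.5 pair, 12.2 and 12.9 in the E16.5 pair and 5.23 and 5.08 in the P6w pair, and only the P6w values lay apart from the rest. Tead4, the factor best known from the trophectoderm of the blastocyst, was the lowest of the 4 at 6.07 and 5.33 CPM in the E12.5 pair, 2.49 and 1.94 in the E13.5 pair and 3.03 and 2.51 in the E16.5 pair. At P6w it stood at 0.163 and 0.499 CPM, or 8 counts in both libraries together. Against 239 counts at E12.5 this is a ratio of 20.3 (exact 95% interval 10.1 to 47.5, counting error only).

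**Figure D1:**
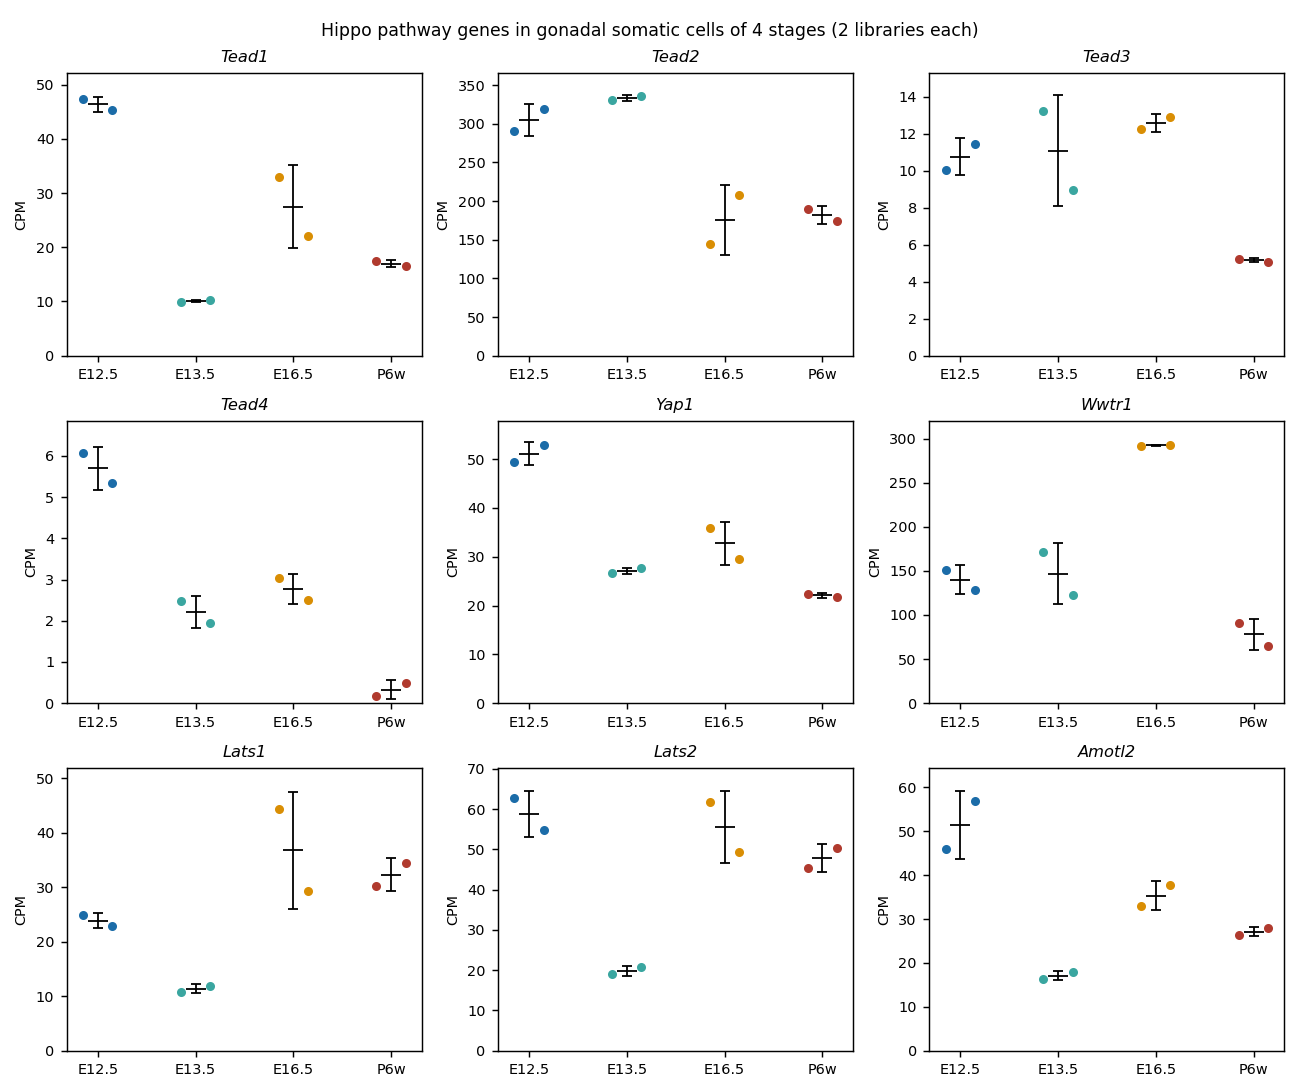
Level in CPM (y axis) of the 9 Hippo genes by stage, from E12.5 to P6w (x axis); points are libraries and bars the mean ± SD of 2. Tead1, Lats1, Lats2 and Amotl2 dip at E13.5, Wwtr1 peaks at E16.5 (292 and 293 CPM), and Tead4 is lowest at P6w.

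Between E12.5 and E13.5, 6 of the 9 genes fell and 0 rose, in a comparison in which 45.9% of all tested genes were called and 22.1% were called lower (edgeR quasi-likelihood test on TMM-scaled counts, Benjamini-Hochberg adjusted p below 0.05, as for all stage comparisons). Tead1 fell by 2.20 ± 0.192 on the log2 scale (SE, adjusted p = 2.07e-06, 4.61-fold) and Tead4 by 1.36 ± 0.344 (adjusted p = 0.00477). Tead2 (0.13), Tead3 (0.05) and Wwtr1 (0.07) did not pass. The falls coincided with a trend over gene length: long genes were lower at E13.5 (Spearman's rho across genes -0.49), and the median of the 4177 genes of 6 to 14 kb was -0.47, against 0.03 for all genes. By the length of all exons of a gene together, Tead1, Yap1, Lats1, Lats2 and Amotl2 lie in that range, and so does Tead3, which did not fall. With the trend over length taken out, all 6 calls remained, at -1.50 for Tead1, -1.41 for Tead4, -0.39 for Yap1, -0.68 for Lats1, -1.22 for Lats2 and -1.31 for Amotl2.

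Later embryonic and adult stages differed in other members. From E13.5 to E16.5, 5 of the 9 genes rose and 1 fell (54.1% of all genes called). Tead1 rose by 1.45 ± 0.191 (adjusted p = 1.72e-05) and Tead2 fell by 0.92 ± 0.148 (adjusted p = 0.000105), while Tead3 and Tead4 did not pass. Long genes were higher at E16.5 (median 0.45 for 6 to 14 kb), and with that trend taken out Tead1 was at 0.89 (adjusted p = 0.000345). From E16.5 to P6w, 5 fell and 0 rose (56.1% of all genes called, 29.8% lower): Tead4 fell by 3.05 ± 0.507 (adjusted p = 0.000117), Tead3 by 1.29 ± 0.240 (adjusted p = 0.000327) and Tead1 by 0.70 ± 0.188 (adjusted p = 0.00534). The Tead1 call rested on the first E16.5 library, without which it was -0.38 (adjusted p = 0.0718), and a term for the lane code gave an adjusted p of 0.0676. Only E16.5 held both lane codes, so that term rests on the difference between its libraries and is not a separate check.

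Against E12.5 directly, 7 genes were called at P6w, all lower (52.9% of all genes called, 27.5% lower), and 7 at E16.5, of which 2 were higher and 5 lower (37.6% called). These comparisons share the E12.5 libraries with that of E13.5. At P6w, Tead4 fell by 4.08 ± 0.482, Tead1 by 1.45 ± 0.188, Tead3 by 1.06 ± 0.240 and Tead2 by 0.74 ± 0.148 (adjusted p = 4.25e-06, 1.15e-05, 0.0017 and 0.000623), so that all 4 factors were lower in the adult ovary cells. At E16.5, Tead1 fell by 0.75 ± 0.179 (adjusted p = 0.00415) and Tead2 by 0.79 ± 0.148 (adjusted p = 0.000685). The E16.5 call of Tead4, 1.03 ± 0.337 lower with an adjusted p of 0.0248, was lost without the first (0.155) or second (0.0791) E12.5 library or the second E16.5 library (0.0808), and under DESeq2 (0.0692).

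The coactivators followed different courses. Yap1 was at 49.4 and 52.8 CPM in the E12.5 pair, 26.7 and 27.6 in the E13.5 pair, 35.8 and 29.6 in the E16.5 pair and 22.5 and 21.7 in the P6w pair. It was highest at E12.5, and against that stage it fell by 0.91 ± 0.148 at E13.5, by 0.64 ± 0.147 in E16.5 cells and by 1.21 ± 0.153 in P6w cells (adjusted p = 0.000179, 0.00315 and 8.62e-06). Wwtr1 was at 151 and 129 CPM in the E12.5 pair, 171 and 122 in the E13.5 pair, 292 and 293 in the E16.5 pair and 90.6 and 65.1 in the P6w pair. E12.5 and E13.5 overlapped, E16.5 lay above them and P6w below. Wwtr1 rose by 0.99 ± 0.169 from E13.5 to E16.5 (adjusted p = 0.000174) and fell by 1.91 ± 0.175 from there to P6w, or 3.75-fold (adjusted p = 2.56e-07). The 6 interstitial markers had the same peak, with sums of 788 to 828 CPM at E13.5, 2690 to 2910 in E16.5 cells and 377 to 410 in P6w cells, and the 6 germ cell markers went from 51.1 to 53.8 CPM through 159 to 230 to 24.7 to 25.8. Their part in the course of Wwtr1 was not tested. Per length, Wwtr1 was the more abundant of the pair, with 31.7 and 26.9 RPKM against 5.34 and 5.70 RPKM of Yap1 at E12.5.

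The kinases dipped at E13.5 and came back. Lats1 was at 24.9 and 22.9 CPM in the E12.5 pair, 10.9 and 12 in the E13.5 pair, 44.4 and 29.2 in the E16.5 pair and 30.2 and 34.4 in the P6w pair. Lats2 was at 62.8 and 54.8 CPM in the E12.5 pair, 19.0 and 20.8 in the E13.5 pair, 61.9 and 49.2 in the E16.5 pair and 45.5 and 50.4 in the P6w pair. The E13.5 libraries were the lowest for both genes, with no overlap. Lats1 fell by 1.07 ± 0.198 to E13.5 and rose by 1.69 ± 0.198 to E16.5 (adjusted p = 0.000508 and 6.03e-06). For Lats2 the fall was 1.57 ± 0.156 and the rise 1.49 ± 0.156 (adjusted p = 5.17e-06 and 2.38e-06). With the trend over length taken out, the rises to E16.5 were 1.39 for Lats1 and 1.21 for Lats2, both still called. At P6w neither kinase passed against E12.5, with 0.44 for Lats1 (adjusted p = 0.0676) and -0.29 for Lats2 (adjusted p = 0.114). Lats1 was called there when the trend over length was removed (0.53, adjusted p = 0.0187) and under the lane term (1.04). E12.5 and P6w differ wholly in lane code, so the lane term rests on the E16.5 pair alone. The E16.5 call of Lats1 against E12.5 (0.63 ± 0.188, adjusted p = 0.0164) did not hold without the first (0.0637) or second (0.12) E12.5 library or the first E16.5 library (0.29, adjusted p = 0.191).

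Amotl2 had the same dip. It was at 46.0 and 56.9 CPM in the E12.5 pair, 16.4 and 17.8 in the E13.5 pair, 33.0 and 37.7 in the E16.5 pair and 26.4 and 27.9 in the P6w pair, with no overlap between any stages. It fell by 1.59 ± 0.160 to E13.5 (3.01-fold, adjusted p = 5.84e-06) and rose by 1.04 ± 0.160 from there to E16.5 (adjusted p = 6.89e-05). Against E12.5 it fell by 0.92 ± 0.158 at P6w (adjusted p = 0.000168). At E16.5 the fall of 0.54 ± 0.154 (adjusted p = 0.0121) was lost without the second E12.5 library (-0.39, adjusted p = 0.188).

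The other genes of the pathway were taken as lists: 24 regulators upstream of Lats1 and Lats2, the 4 Vgll genes as other partners of the Tead factors, and 19 target genes. From E12.5 to E13.5, 18 of the 24 upstream genes fell and 0 rose (75.0% called, beside 45.9% of all genes called and 22.1% called lower). Their median was -0.70 beside 0.03 for all genes. Among them Fat1 and Fat4, giant cadherins, fell by 1.98 and 1.47, and Amot, a relative of Amotl2, by 1.61. Of 18 targets tested, 8 fell and 1 rose (median -0.40), with F3, the gene of tissue factor, at -2.51 ± 0.247. From E13.5 to E16.5, 13 of 24 upstream genes and 10 of 18 targets were called higher and 0 lower. The called shares of 54.2% and 55.6% stood near the 54.1% of all genes, whose split by direction is not given here. The medians were 0.44 and 0.86, beside 0.06 for all genes. F3 was at 2.37 CPM at E13.5 and 83.7 at E16.5. The trend over gene length given above runs through both comparisons.

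At P6w, 4 upstream genes were higher and 10 lower than at E12.5, and 5 targets were higher and 11 lower (median -0.82 beside -0.04 for all genes). These are 58.3% of the upstream genes and 88.9% of the targets called, beside 52.9% of all genes. Fat4 and its ligand Dchs1 fell by 5.35 and 2.83, while Crim1, a transmembrane protein gene, rose by 3.24 to 181 CPM. Of the targets, Igfbp3 fell by 4.08 and Tgfb2, which encodes a growth factor, by 2.27. The classical targets split. Ctgf (the name of Ccn2 in the files) was at 12.9 and 10.7 CPM in the E12.5 pair, 7.11 and 6.56 in the E13.5 pair, 13.8 and 15.5 in the E16.5 pair and 57.3 and 52.2 in the P6w pair. It rose by 2.21 from E12.5 to P6w (adjusted p = 4.12e-08). Cyr61 (the name of Ccn1 in the files) was at 705 and 693 CPM in the E12.5 pair, 637 and 690 in the E13.5 pair, 498 and 651 in the E16.5 pair and 323 and 283 in the P6w pair, and fell by 1.21 from E12.5 to P6w (adjusted p = 2.61e-06). Ankrd1 was near its limit of detection, at 1.11 and 0.642 CPM in the E12.5 pair, 1.02 and 0.684 in the E13.5 pair, 0.519 and 0.795 in the E16.5 pair and 0 and 0.0832 in the P6w pair, or 37 counts at E12.5 against 1 at P6w (ratio 25.1, exact 95% interval 4.23 to 1020). Of the 3 Vgll genes tested, Vgll4, a competitor of the coactivators for Tead, fell by 0.81 to P6w.

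In the cells induced from embryonic stem cells, the mix of Tead factors was measured as FPKM, a unit per length of gene. FPKM values were tested with limma on log2(FPKM + 1), a scale that understates the change of low genes. The exons together are 13570 bases long for Tead1 and 4788 for Tead2, so shares per length depend on the length used. On D4 to D10 the Tead1 share of the sum of the 4 was 25.3% to 33.9%, against 12.4% in E12.5_GC, and the Tead3 share was 9.42% to 17.7%, against 8.30%. Tead2 made up 55.2% ± 2.14 (SD, n = 3) on D4, 57.0% ± 0.224 on D6, 53.1% ± 1.22 on D8 and 43.6% ± 1.67 on D10, against 76.1% ± 5.60 in E12.5_GC. The sum of the 4 went from 96.5 FPKM on D4 and 89.3 on D6 to 67.5 on D8 and 58.4 on D10, beside 69.0 in E12.5_GC.

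Tead1 stood at 27.0, 25.6 and 29.1 FPKM on D4, 22.6, 22.5 and 22.7 on D6, 18.7, 19.8 and 19.3 on D8 and 18.9, 20.7 and 19.9 on D10, and at 7.77, 4.72 and 13.48 in E12.5_GC. Every V580 library lay above every E12.5_GC library. Tead2 stood at 53.7, 55.4 and 50.8 FPKM on D4, 51.0, 50.9 and 50.7 on D6, 36.6, 36.5 and 34.3 on D8, 25.3, 24.5 and 26.5 on D10, and at 48.7, 55.5 and 52.8 in E12.5_GC. It lay within the E12.5_GC values on D4 and D6 and below them afterwards. Tead3 was steady over the days, at 8.77 to 10.7 FPKM in the 12 V580 libraries, above the 5.51, 5.84 and 5.77 of E12.5_GC. Tead4 stood at 7.26, 6.59 and 6.77 FPKM on D4, 5.90, 5.45 and 5.54 on D6, 2.99, 3.37 and 3.26 on D8 and 2.53, 3.00 and 2.84 on D10, and at 2.44, 1.73 and 2.63 in E12.5_GC, so that its values approached and on D10 overlapped those of the gonad.

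**Figure D2:**
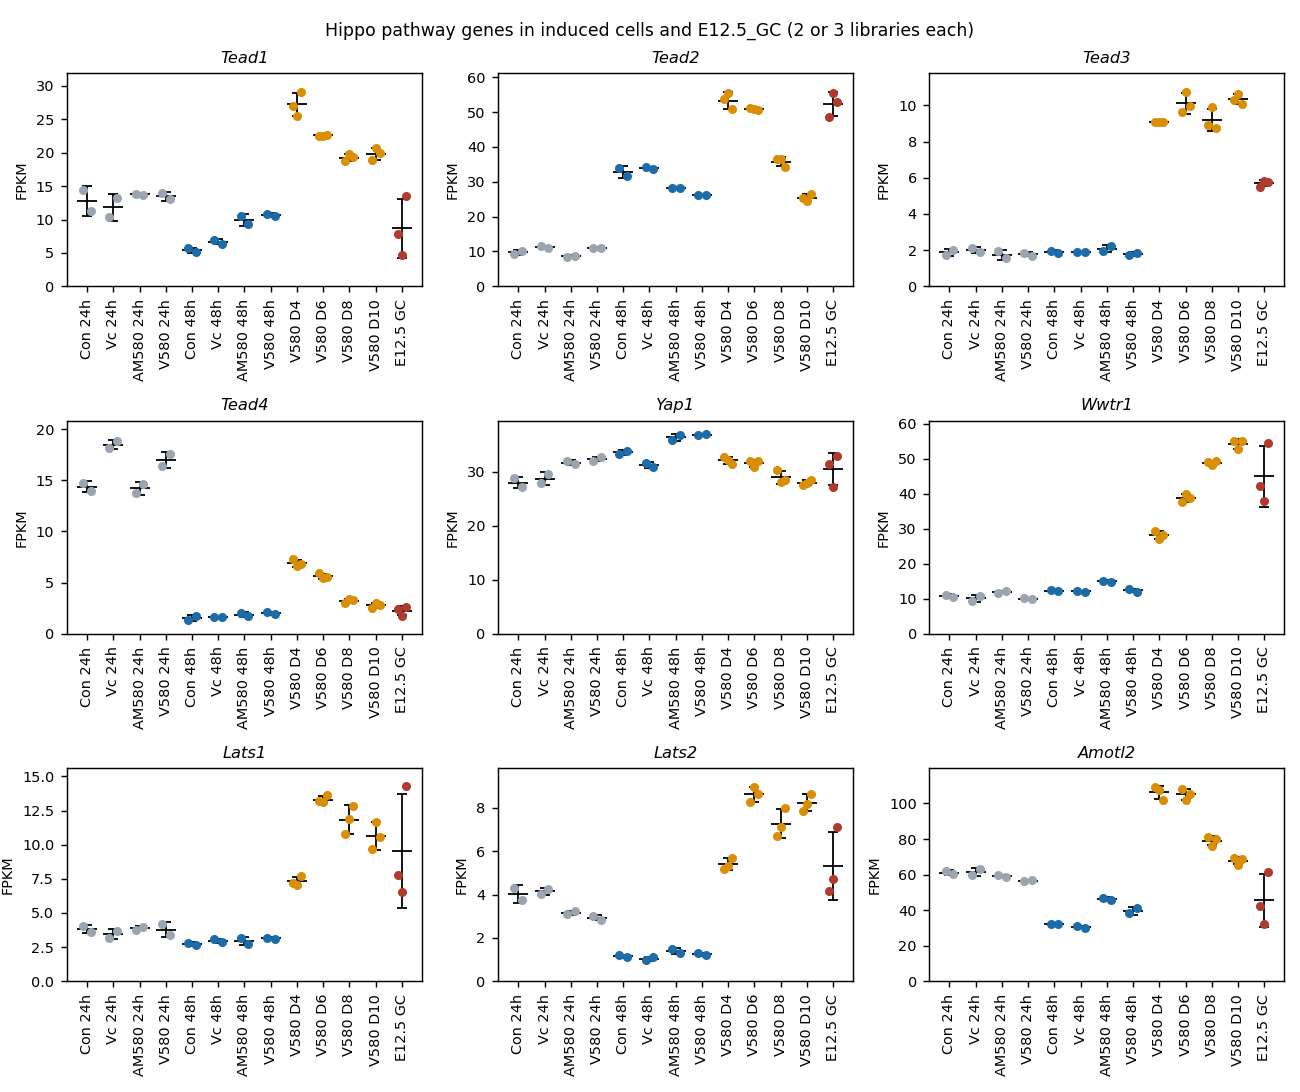
FPKM (y axis) of the 9 Hippo genes in 13 groups (x axis): Con, Vc, AM580 and V580 at 24 h and 48 h (2 libraries each), V580 on D4, D6, D8 and D10, and E12.5_GC (3 each); points are libraries and bars the mean ± SD. Tead4 is high at 24 h (13.7 to 18.8 FPKM) and again on D4 and D6, Wwtr1 climbs from D4 to D10, and Yap1 stays between 27.2 and 37.0 FPKM.

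Against E12.5_GC, 4 of the 9 genes were higher and 1 lower on D4 (71.6% of all tested genes called), 6 higher and 0 lower on D6 (67.0%, of all genes 35.0% higher), 5 higher and 1 lower on D8 (63.2%) and 6 higher and 1 lower on D10 (69.5%), by limma at a Benjamini-Hochberg adjusted p below 0.05. The 4 comparisons share the E12.5_GC libraries, so they are not independent. Tead1 was higher by 1.65 ± 0.214 (SE) on D4, 1.39 on D6, 1.17 on D8 and 1.21 on D10 (adjusted p = 6.26e-06 on D4 and 0.000148 on D10). Tead3 was higher by 0.59 to 0.76 on all 4 days (adjusted p = 3.63e-07 on D4 and 2.67e-08 on D10). Tead4 was higher by 1.28 ± 0.0924 on D4, 1.03 on D6, 0.38 on D8 and 0.22 on D10 (adjusted p = 9.38e-09, 1.46e-07, 0.00265 and 0.0422). The D10 call of Tead4 was lost without the second E12.5_GC library (0.10, adjusted p = 0.198) or the second (0.137) or the third (0.0965) D10 library. Tead2 fell below the gonad by 0.53 ± 0.0607 on D8 (adjusted p = 2.35e-06) and by 1.01 ± 0.0607 on D10 (adjusted p = 1.41e-09), and on D6 differed by -0.04.

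Between successive days, 3 of the 9 genes rose and 1 fell from D4 to D6 (44.9% of all genes called), 1 rose and 3 fell from D6 to D8 (41.1%), and 0 rose and 1 fell from D8 to D10 (34.5%, of all genes 15.0% lower). The model behind these counts shares the spread of each gene over all its groups, E12.5_GC included. Fitting only the days compared called 8 members from D6 to D8 and 4 from D8 to D10, so these counts depend on that choice. Tead2 fell by 0.50 ± 0.0607 from D6 to D8 and by 0.48 ± 0.0607 from D8 to D10 (adjusted p = 1.63e-05 and 4.24e-05). Tead4 fell by 0.66 ± 0.0924 from D6 to D8 (adjusted p = 6.12e-05). The call of its fall of 0.25 from D4 to D6 (adjusted p = 0.0416) was lost when any 1 of the 6 libraries was left out (adjusted p 0.057 to 0.138), although D4 and D6 did not overlap.

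Of the coactivators, Wwtr1 climbed and Yap1 did not. Wwtr1 stood at 29.2, 27.0 and 28.2 FPKM on D4, 37.6, 39.9 and 38.9 on D6, 49.2, 48.3 and 49.3 on D8 and 55.1, 52.7 and 55.0 on D10, with no overlap between days, and at 42.3, 38.0 and 54.7 in E12.5_GC. It rose by 0.45 ± 0.0956 from D4 to D6 (adjusted p = 0.00146) and by 0.33 ± 0.0956 from D6 to D8 (adjusted p = 0.0136). It differed from the gonad by -0.64 ± 0.0956 on D4 (adjusted p = 2.53e-05), at -0.19 on D6 without passing, and above it by 0.28 on D10 (adjusted p = 0.0172). Single E12.5_GC libraries decided the later calls: without the second, Wwtr1 was called lower on D6 (-0.30, adjusted p = 0.00416), and on D10 its call was lost without the first (adjusted p = 0.0595) or the second (0.17, adjusted p = 0.0722). Yap1 stood at 32.8, 32.2 and 31.5 FPKM on D4, 31.9, 30.8 and 32.0 on D6, 30.3, 28.2 and 28.4 on D8 and 27.6, 27.9 and 28.5 on D10, and at 31.5, 27.2 and 32.9 in E12.5_GC. It passed in none of these 7 comparisons, with a value of 0.05 on D6, and without the second E12.5_GC library it was called lower on D8 (-0.15, adjusted p = 0.0167) and on D10 (-0.19).

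Both kinases rose between D4 and D6. Lats1 stood at 7.20, 7.05 and 7.70 FPKM on D4, 13.2, 13.1 and 13.6 on D6, 10.8, 11.9 and 12.9 on D8 and 9.68, 11.7 and 10.6 on D10, while E12.5_GC spread over 7.80, 6.55 and 14.3. Lats2 stood at 5.20, 5.33 and 5.70 FPKM on D4, 8.28, 8.95 and 8.64 on D6, 6.70, 7.11 and 7.99 on D8, 7.88, 8.17 and 8.65 on D10, and at 4.18, 4.70 and 7.11 in E12.5_GC. D6 lay above D4 without overlap for both genes. Lats1 rose by 0.78 ± 0.179 and Lats2 by 0.59 ± 0.123 between these days (adjusted p = 0.00255 and 0.00139). Against E12.5_GC, Lats2 was higher by 0.63 ± 0.123 on D6, 0.41 on D8 and 0.57 on D10 (adjusted p = 0.00039, 0.00975 and 0.00084), of which the D8 call was lost without the first E12.5_GC library (0.28, adjusted p = 0.0549). Lats1 passed on D6 (0.51 ± 0.179, adjusted p = 0.0212), but not without the first (0.41, adjusted p = 0.088) or second (0.30, adjusted p = 0.107) E12.5_GC library or the third D6 library (0.49, adjusted p = 0.0545). Without the third E12.5_GC library, which holds the value of 14.3, Lats1 was also called on D8 (0.65, adjusted p = 7.95e-06) and D10 (0.51, adjusted p = 7.3e-05).

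Amotl2 stood at 109, 108 and 102 FPKM on D4, 108, 102 and 105 on D6, 81.1, 76.2 and 80.1 on D8 and 69.5, 65.5 and 68.7 on D10, and at 42.4, 32.4 and 61.5 in E12.5_GC. All 12 V580 libraries lay above the gonad. It was higher by 1.26 ± 0.15 on D4, 1.24 on D6, 0.83 on D8 and 0.62 on D10 (adjusted p = 2.67e-06, 4.09e-06, 0.00022 and 0.00211). The step down from D6 to D8 was -0.41 (adjusted p = 0.0434), and all D6 values lay above all D8 values. Its call was lost when any 1 of its 6 libraries was left out (adjusted p 0.0774 to 0.115). The error in that model also draws on the spread of E12.5_GC.

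**Figure D3:**
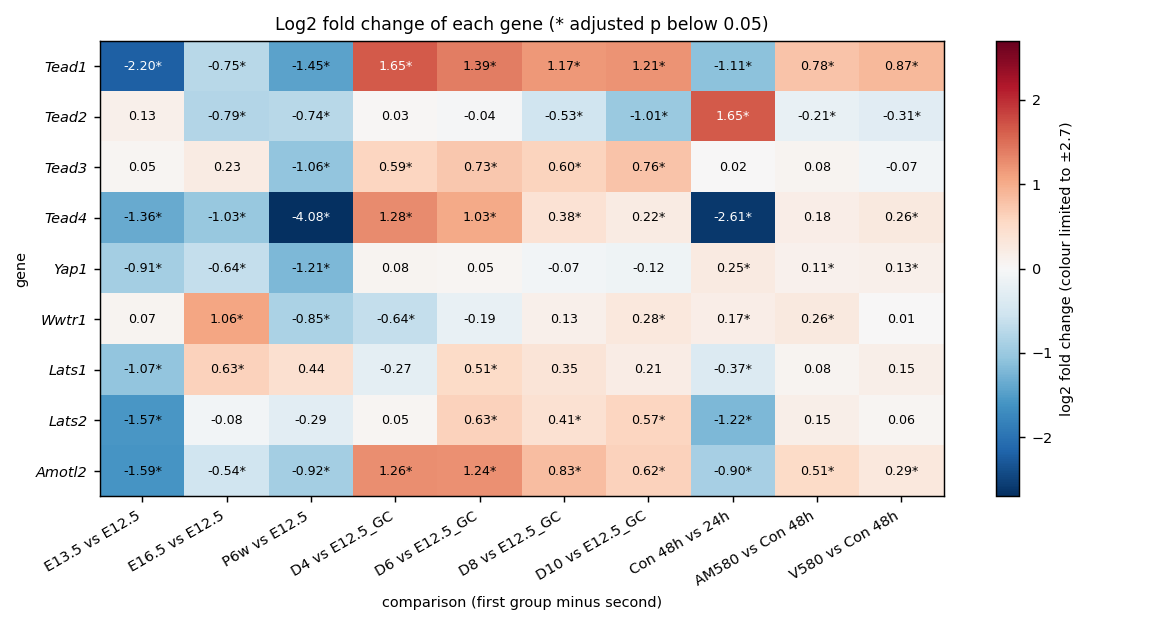
Heat map of the log2 fold change of the 9 Hippo genes (y axis) in 10 comparisons (x axis), with the colour limited to a change of 2.7 and a star where the adjusted p was below 0.05. Tead1 and Amotl2 are higher than E12.5_GC on all 4 days, Tead2 is lower on D8 and D10, and Tead4 is lowest at P6w (-4.08).

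The rest of the pathway did not move as a block against E12.5_GC. Of the 24 upstream genes, 9 were higher and 9 lower on D4 (median 0.06), 10 and 9 on D6, 10 and 6 on D8, and 10 and 7 on D10 (median 0.01). The called shares of 75.0%, 79.2%, 66.7% and 70.8% stood near the 71.6%, 67.0%, 63.2% and 69.5% of all genes. On D4, Fat4 and Dchs1 differed by -2.93 and -1.97, and Ajuba, a LIM protein that binds Lats, was higher by 1.91. Wwc1, the gene of the scaffold KIBRA, was higher by 2.06 on D6, as was Ptpn14, a phosphatase that binds Yap1, by 1.41. Of the 18 targets, 7 were higher and 8 lower on D4, 11 and 3 on D6, 12 and 4 on D8, and 11 and 3 on D10, where the median was 0.99 beside 0.03 for all genes. The called shares of the targets were 83.3%, 77.8%, 88.9% and 77.8% on these days, beside the shares of all genes given above. Igfbp3, which encodes a binding protein of insulin-like growth factors, was higher by 2.83 on D10 and F3 by 2.75.

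The 3 classical targets were checked one by one. Ankrd1 stood at 3.11 to 6.95 FPKM in the 12 V580 libraries and at 0.143, 0.0242 and 0.231 in E12.5_GC, and was higher by 2.25, 1.87, 2.04 and 2.55 on D4, D6, D8 and D10. Ctgf stood at 17.4, 16.4 and 16.1 FPKM on D4, 23.5, 20.3 and 23.5 on D6, 33.5, 35.9 and 37.4 on D8 and 64.8, 56.4 and 52.2 on D10, and at 39.6, 14.7 and 18.2 in E12.5_GC. It climbed over the days and passed against the gonad on D8 (0.67) and D10 (1.35). Cyr61 stood at 259, 248 and 246 FPKM on D4, 510, 445 and 491 on D6, 588, 574 and 627 on D8 and 353, 410 and 308 on D10, and at 635, 319 and 452 in E12.5_GC. It rose by 0.94 from D4 to D6 and fell by 0.75 from D8 to D10.

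The Tead genes exchanged places between 24 h and 48 h in the untreated Con cells. At 24 h Tead4 made up 37.1%, Tead1 32.9% and Tead2 25.2% of the summed FPKM of the 4, and at 48 h Tead2 made up 78.8%, Tead1 12.9% and Tead4 3.69%. The sum itself was 38.8 FPKM at 24 h and 41.6 at 48 h. Tead4 went from 14.8 and 14.0 FPKM to 1.31 and 1.74, and Tead1 from 14.4 and 11.2 to 5.66 and 5.10. Tead2 went the other way, from 9.29 and 10.2 FPKM to 34.1 and 31.5, while Tead3 was at 1.75 and 2.01 and then at 1.97 and 1.85. Only Tead3 overlapped between the times.

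In that comparison 3 of the 9 genes rose and 5 fell (66.0% of all tested genes called, limma). Tead4 fell by 2.61 ± 0.0796 (adjusted p = 1.03e-12), or by 3.23 ± 0.10 when edgeR was run on the reads recovered from the FPKM, a scale that does not flatten low values. Tead1 fell by 1.11 ± 0.106 and Tead2 rose by 1.65 ± 0.0491 (adjusted p = 3.01e-07 and 7.99e-13). Lats2 fell from 4.31 and 3.73 FPKM to 1.20 and 1.10, by 1.22 ± 0.0719 (adjusted p = 1.18e-09), and Lats1 from 4.04 and 3.63 to 2.83 and 2.65, by 0.37 ± 0.0843 (adjusted p = 0.00132). Amotl2 fell from 62.1 and 60.0 FPKM to 31.9 and 32.4, by 0.90 ± 0.0423 (adjusted p = 9.82e-11). Yap1 rose by 0.25 ± 0.0409, from 28.8 and 27.3 to 33.3 and 33.9 FPKM (adjusted p = 6.67e-05). Wwtr1 was at 11.2 and 10.6 and then at 12.53 and 12.19 FPKM, and its rise of 0.17 (adjusted p = 0.02) was lost without the second 24 h library (0.118) or the first 48 h library (0.0999). The targets fell with Lats2 and Amotl2: 14 of 17 were lower and 2 higher, with a median of -1.29 beside 0.00 for all genes, and 94.1% called beside 66.0%. Sums of other markers fell over the same hours, from 119 to 129 FPKM to 29.0 to 30.5 for the 5 interstitial genes measured, from 34.7 to 36.4 to 15.0 to 15.5 for 6 mesothelial genes and from 15.0 to 15.3 to 4.93 to 5.33 for 5 endothelial genes, of which Emcn was at 0. Their part in the fall of the targets was not tested. Ctgf fell from 249 and 267 FPKM to 54.1 and 58.4, Cyr61 from 157 and 165 to 64.2 and 65.3, and Ankrd1 from 49.9 and 47.9 to 9.98 and 10.4 (log2 differences of -2.18, -1.30 and -2.16, adjusted p = 1.21e-13, 2.27e-12 and 7.19e-13).

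After 24 h of treatment the members differed little from Con. Vc raised 2 of 9 and lowered 0 (13.6% of all genes called, 7.57% higher), AM580 raised 1 and lowered 2 (14.8%), and V580 raised 3 and lowered 1 (29.0%). The 3 comparisons share the Con libraries. The largest called change was that of Lats2 under V580, from 4.31 and 3.73 FPKM in Con to 3.03 and 2.84, a fall of 0.35 ± 0.0719 (adjusted p = 0.00206). Yap1 rose under V580 to 32.1 and 32.7 FPKM, by 0.20 ± 0.0409 (adjusted p = 0.00175), and both calls held without any single library. Tead2 differed between V580, at 10.9 and 11.1 FPKM, and AM580, at 8.43 and 8.78 (0.32 ± 0.0491, adjusted p = 0.000559), a comparison with 14.8% of genes called, 1 member higher and 1 lower. Each of the calls of Tead2 and Tead4 under Vc, of all 3 genes under AM580, of Tead2 and Tead4 under V580 and of Wwtr1 between V580 and AM580 was lost when some single library was left out.

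At 48 h AM580 and V580 each raised 4 of the 9 genes and lowered 1 (57.0% and 57.1% of all genes called), whereas Vc gave 0 member calls (12.4%). Under Vc, 2 members had an unadjusted p below 0.05, and edgeR on the recovered reads also called 0. Tead1 stood at 5.66 and 5.10 FPKM in Con, 6.93 and 6.39 under Vc, 10.6 and 9.33 under AM580 and 10.9 and 10.5 under V580. Both groups with AM580 lay above the others, by 0.78 ± 0.106 for AM580 and 0.87 ± 0.106 for V580 against Con (adjusted p = 2.15e-05 and 7.08e-06). Amotl2 stood at 31.9 and 32.4 FPKM in Con, 31.0 and 30.2 under Vc, 47.0 and 45.6 under AM580 and 38.1 and 41.3 under V580. It rose by 0.51 ± 0.0423 under AM580 (adjusted p = 1.33e-07) and by 0.29 ± 0.0423 under V580 (adjusted p = 3.74e-05). Adding Vc to AM580 thus went with a lower level of Amotl2, by -0.22 ± 0.0423 for V580 against AM580 (adjusted p = 0.00243), a comparison with 0 members higher, 2 lower, 19.2% of all genes called and 10.7% called lower.

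Tead2 was the member that fell at 48 h. It stood at 34.1 and 31.5 FPKM in Con, 34.2 and 33.5 under Vc, 28.2 and 28.3 under AM580 and 26.2 and 26.2 under V580. The fall was 0.21 ± 0.0491 under AM580 and 0.31 ± 0.0491 under V580 (adjusted p = 0.00238 and 8.42e-05), and its share of the Tead sum was 67.1% and 64.5% there against 78.8% in Con. Wwtr1 rose under AM580 from 12.53 and 12.19 FPKM to 15.2 and 14.7, by 0.26 ± 0.0581 (adjusted p = 0.00175), but stood at 12.8 and 12.1 under V580. The difference between V580 and AM580 was -0.25 (adjusted p = 0.00786), and it was lost without the first AM580 library (0.0655) or the second V580 library (0.0809). Yap1 rose by 0.11 under AM580 and 0.13 under V580, and Tead4 by 0.26 under V580. These 3 calls were lost when some single library was left out. Lats1, Lats2 and Tead3 did not pass at 48 h under any compound. Pluripotency markers moved with the treatment, at 1120 to 1140 FPKM in Con, 812 to 837 under Vc, 635 to 664 under AM580 and 536 to 538 under V580, and 6 of 6 were at 1 FPKM or more in all of these groups. Their part in these results was not tested. Set against the effect at 24 h by the interaction term of the model, the effect of AM580 at 48 h was higher for 3 members and lower for 0 (35.0% of all genes called, with 1760 of 10644 higher), and that of V580 was higher for 3 and lower for 1 (33.9% called).

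**Figure D4:**
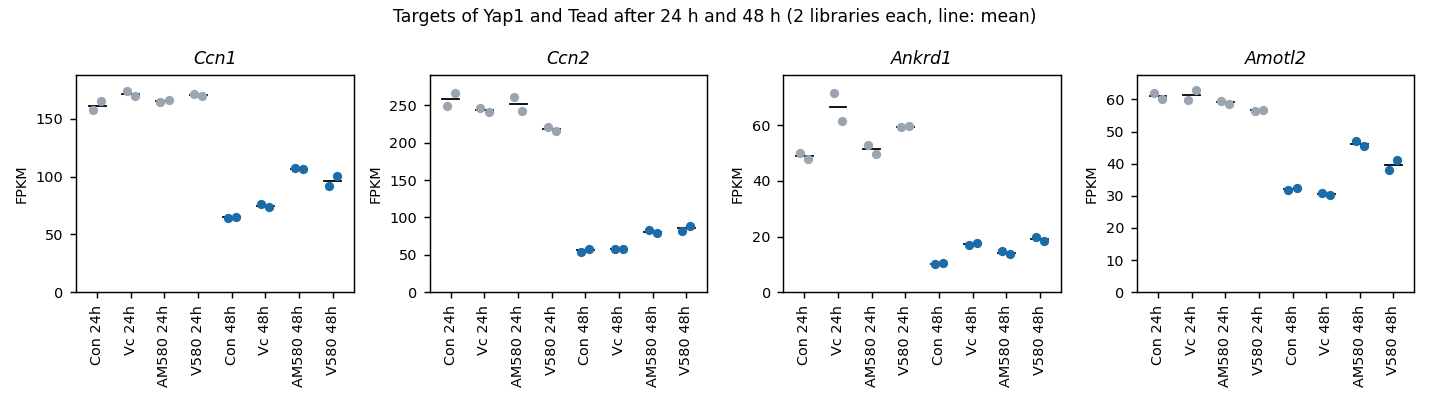
FPKM (y axis) of Ccn1, Ccn2, Ankrd1 and Amotl2 in Con, Vc, AM580 and V580 cells at 24 h and 48 h (x axis); points are the 2 libraries and lines the mean. All 4 genes are lower at 48 h than at 24 h, and at 48 h both groups with AM580 lie above Con.

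The classical targets were higher under both AM580 and V580 at 48 h. For Ankrd1 and Ccn1 this was the reason for printing their promoter windows above. Cyr61 stood at 64.2 and 65.3 FPKM in Con at 48 h, 75.9 and 73.7 under Vc, 107 and 106 under AM580 and 91.6 and 101 under V580. Ankrd1 stood at 9.98 and 10.4, 16.8 and 17.5, 14.8 and 13.6, and 19.7 and 18.5 FPKM in the same order, and was thus raised by Vc as well (0.70 ± 0.0632, adjusted p = 8.56e-06), under which Amotl2 differed by -0.07 and was not called. Between V580 and AM580 both genes went opposite ways, with Ankrd1 higher under V580 by 0.40 (adjusted p = 0.000463) and Amotl2 lower. Ctgf stood at 54.1 and 58.4 FPKM in Con, 58.2 and 57.8 under Vc, 82.8 and 78.7 under AM580 and 82.5 and 89.0 under V580. Under AM580 the rises were 0.71 for Cyr61, 0.51 for Ctgf and 0.44 for Ankrd1 (adjusted p = 4.07e-09, 1.21e-06 and 3.52e-05), and under V580 they were 0.56, 0.60 and 0.84. All of these values lay below those of Con at 24 h. Of 17 targets, 9 were higher and 3 lower at 48 h under either treatment, with medians of 0.22 and 0.27 beside -0.03 and -0.02 for all genes. Under each, 70.6% of the targets were called, beside 57.0% and 57.1% of all genes. Nt5e, the gene of the ectonucleotidase CD73, rose from 1.13 FPKM to 6.01 under AM580 and 6.61 under V580.

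Among the 22 upstream genes tested, 9 rose and 5 fell at 48 h under AM580, and 8 rose and 7 fell under V580. These are 63.6% and 68.2% called, beside 57.0% and 57.1% of all genes. Amot went from 2.95 FPKM in Con to 14.2 under AM580, by 1.95 ± 0.0908, and to 7.50 under V580, by 1.11 ± 0.0908 (adjusted p = 2.07e-10 and 1.2e-07). As for its relative Amotl2, the level under V580 was below that under AM580 (-0.84 ± 0.0908, adjusted p = 1.68e-05).

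In the 10x sample of V580 cells on day 6, the 9 genes were counted in 15315 cells (of 15412 barcodes, with no barcode duplicated, 97 having over 40% mitochondrial UMIs), with a median of 9281 UMIs per cell. With a single sample there is no test, and the exact 95% Poisson intervals given here cover counting error only. Over all cells Tead1 had 199 CPM (UMIs scaled to the total of all UMIs as in bulk, interval 197 to 202), Tead2 99.4 (97.9 to 101), Tead3 25.1 (24.4 to 25.9) and Tead4 7.09 (6.68 to 7.51). Amotl2 had 129 (128 to 131), Wwtr1 97.8 (96.3 to 99.3), Yap1 46.3 (45.2 to 47.3), Lats2 41.5 (40.5 to 42.5) and Lats1 22.1 (21.4 to 22.8). Tead1 thus outnumbered Tead2 here, while Tead2 had the higher FPKM in the bulk libraries of the same day. The 10x counts come from the 3' ends of transcripts and the FPKM from their whole length, so the order of genes cannot be carried over.

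The cells fell into 11 clusters. Cluster 1 (3499 cells) was mesothelial-like by Upk3b and Lrrn4, but only 2 of 6 mesothelial markers were more than 2-fold above the other cells. The sum of these markers was 579 CPM in cluster 1, and it was higher in cluster 5 (693) and cluster 8 (972). Cluster 3 (1342 cells) was interstitial-like by Col1a1 and Col1a2, although Inhba was also among its top genes. Cluster 7 (940 cells) was extraembryonic endoderm-like by Cubn, with Fst also among its top genes. Cluster 10, neuron-like by Tubb3, held 28 cells and is not described further. The other clusters were left without a name and are given by their leading genes: cluster 2 by Aspm and Mki67, cluster 5 by Wnt6 and Cldn4, cluster 8 by Rhox6 and Rhox9, cluster 9 by Lama1, and cluster 6 by Cited1 and S100g. Clusters 0, 4, 6 and 9 were shallow, with medians of 1455, 2136, 2277 and 2356 UMIs per cell, and cluster 8 followed at 3238. Cluster 4 had a median of 15.6% mitochondrial UMIs.

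**Figure D5:**
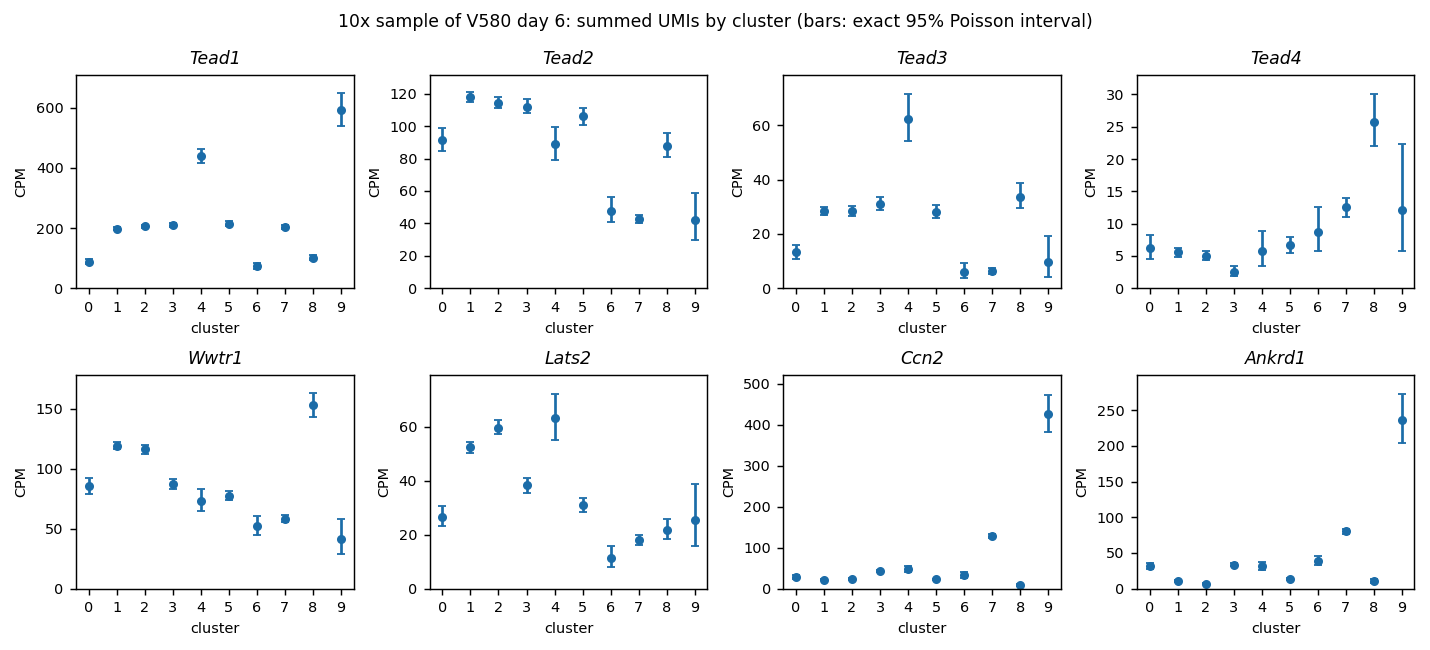
CPM (y axis) of 8 genes in clusters 0 to 9 (x axis) of the V580 D6 10x sample; bars are exact 95% Poisson intervals, which cover counting error only. Cluster 9 (268 cells) is highest for Tead1, Ccn2 and Ankrd1, and cluster 8 for Tead4 and Wwtr1. Clusters 6 and 7 are low for Tead2, Tead3 and Lats2, and cluster 9 is low for Tead2 and Tead3.

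Among the deeply read clusters, 1, 2, 3 and 5 were much alike for the Tead genes: Tead1 was at 198 to 215 CPM, Tead2 at 106 to 118 and Tead3 at 28.1 to 31.1. Cluster 7 had as much Tead1, at 203 (197 to 209), but less Tead2, at 42.6 (at most 45.3), and less Tead3, at 6.25 (5.28 to 7.35). Tead4 was highest in cluster 8, at 25.8 (22.0 to 30.1), followed by cluster 7, with an interval of 11.1 to 14.0, and lowest in cluster 3 at 2.57 (1.92 to 3.38). Wwtr1 was also highest in cluster 8, at 153 (143 to 163), against 119 (116 to 122) in cluster 1 and 58.2 (55.1 to 61.3) in cluster 7. Lats2 was at 59.6 (57.1 to 62.3) in cluster 2, whose top genes are those of dividing cells, 52.3 in cluster 1 and 18.0 (16.3 to 19.8) in cluster 7. Among clusters 1, 2, 3, 5, 7 and 8, Yap1 ranged from 34.4 in cluster 7 to 50.6 in cluster 3. In the shallow clusters it was at 23.4 in cluster 6, 43.7 in cluster 0, 64.3 in cluster 9 and 70.9 in cluster 4.

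Ctgf and Ankrd1 were highest in clusters 9 and 7. Ctgf was at 426 CPM (382 to 473) in cluster 9 and 129 (124 to 133) in cluster 7, against 8.34 to 46.9 in clusters 0 to 6 and 8. Ankrd1 was at 236 (204 to 272) in cluster 9 and 80.3 (76.7 to 84.0) in cluster 7, against 6.82 to 38.7 in the same clusters. Cyr61 did not follow them: it was at 92.1 in cluster 7 and 156 in cluster 9, and it was highest in cluster 4, at 231 (215 to 248), and cluster 3, at 213 (207 to 220). At the finer resolution, a cluster of 119 cells had the highest level of Cyr61 of all, at 292 (271 to 314), together with 96.7 (84.8 to 110) of Ankrd1 and 122 (109 to 137) of Ctgf. Amotl2 was at 199 (170 to 232) in cluster 9, 155 (150 to 160) in cluster 7, 91.9 in cluster 3 and 56.9 in cluster 6. Tead1 was at 592 (540 to 647) in cluster 9 and 438 (416 to 461) in cluster 4, both shallow. Of the 6 extraembryonic endoderm markers, 5 were more than 2-fold above the rest of the cells in cluster 9 and 6 in cluster 7, with sums of 2980 and 1340 CPM. In bulk, the sum of these 6 markers was 57.9 to 86.0 FPKM on D4 to D10, 29.5 to 40.2 in E12.5_GC and 3.32 to 4.10 in Con at 24 h. Their part in the bulk levels of the Hippo genes was not tested.

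Over the 13 group means of the FPKM table, members were compared with each other and with 9045 other genes by Pearson's r of log2(FPKM + 1), as a description of groups that share cultures. The closest pairs of members were Tead1 with Amotl2 (r = 0.96), and Tead3 with Wwtr1 and with Lats1 (both 0.95), while Tead2 and Tead4 ran opposite to each other (-0.73). Among all genes, those most like each member were Rell1 (0.983) and Edn1 (0.973) for Tead1, Gusb (0.975) and Arhgap12 (0.969) for Tead2, Nfatc4 (0.993) and Fras1 (0.992) for Tead3, and Sptan1 (0.977) and Gna13 (0.972) for Tead4. For the coactivators they were Nkd1 (0.996) and Clcn4 (0.995) for Wwtr1, and Pgam2 (0.90) and Slc16a13 (0.876) for Yap1. For the kinases they were Vopp1 (0.991) and Ash1l (0.989) for Lats1 and Map4k3 (0.988) and Slc25a24 (0.981) for Lats2, and for Amotl2 they were Ntn1 (0.982) and Tead1 (0.957).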

How the data were processed

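Nothing was aligned anew. For the 4 stages the authors deposited raw read counts, made with Hisat2 on mm10 and featureCounts, and tested them with DESeq2. The authors deposited FPKM values for the treatments, the V580 days and E12.5_GC, and the tool behind that unit is not given in the sources used here, although the submitters' notes list RSEM. They deposited UMI counts for the 10x sample (Cell Ranger, mm10). The library kit did not mark strand, so that reads of overlapping antisense genes cannot be told apart. Libraries of germ cells were not analysed here, and 10 columns of a further table were not used.

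Counts were filtered with filterByExpr, TMM-scaled and tested with edgeR 4.0.16 (quasi-likelihood, R 4.3.3) in a single model of 8 libraries. FPKM were tested with limma 3.58.1 (trend) on log2(FPKM + 1), in a model of 15 libraries (V580 days and E12.5_GC, FPKM of at least 1 in at least 3) and a model of 16 (treatments, at least 1 in at least 2). Genes were called at a Benjamini-Hochberg adjusted p below 0.05 over all genes tested. Whole reads were recovered from the FPKM with GENCODE vM21 lengths: 97.0% of values came out whole within 0.1 reads, for 13433 of 13682 genes. As an alternative, edgeR on these reads called 5, 6, 6 and 7 of the 9 members on D4, D6, D8 and D10 against E12.5_GC. All 3 procedures were tested on simulated data. There every group had the same spread between replicates, so the wider spread of E12.5_GC and E16.5 was not covered. Other alternatives were DESeq2 1.42.0, other filters, scalings and pseudocounts, a replicate block, terms for length, GC content and lane code, and leaving out each library. The lane term was set by the E16.5 libraries alone, as no other stage held both codes. Of the contrasts with 3 libraries per group, same-numbered libraries deviated together in every pair only between D4 and E12.5_GC (correlations of 0.12 to 0.34), where the block changed no call.

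10x barcodes under 200 genes or over 40% mitochondrial UMIs were dropped, and the rest were clustered with scanpy 1.11.5 and leidenalg 0.10.2 (2000 variable genes, 20 components, 20 neighbours, resolution 0.5). There was no upper limit on UMIs and no step for doublets, so doublets may remain. At a resolution of 1.0 there were 18 clusters.

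The 9 members, the pathway lists and the marker lists were chosen with earlier results of these data known. The rule for other named genes took Ccn1, Ccn2 and Ankrd1, and in each comparison up to 3 called genes of a list with the largest change, a mean of at least 5 and no overlap between replicates. Likeness took the 2 genes with the highest Pearson's r. Stage RPKM used GENCODE vM21 lengths of all exons of a gene together.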

Additional observations from a re-analysis of the deposited data

Results flagged for a closer look

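The effect of a treatment, as its difference from Con, was compared between 48 h and 24 h with the interaction term of the limma model, and it differed for 3 members under AM580 (35.0% of all genes called) and 4 under V580 (33.9%). Under AM580 the difference was 0.56 for Amotl2, 0.67 for Tead1 and 0.42 for Lats2 on the log2 scale (adjusted p = 6.98e-06, 0.00311 and 0.00542). Under V580 it was 0.40 for Amotl2, 0.79 for Tead1, 0.41 for Lats2 and -0.47 for Tead2 (adjusted p = 0.000145, 0.000984, 0.00608 and 0.000128). Both sets share the Con libraries. For Tead1 and Amotl2 the treated cells were close to Con at 24 h and above it at 48 h. For Lats2 they were below Con at 24 h, and at 48 h they stood at 1.48 and 1.29 FPKM under AM580 and 1.29 and 1.19 under V580, against 1.20 and 1.10 in Con. For Tead2 the V580 cells were above Con at 24 h and below it at 48 h. Over the same hours the 3 classical targets had differences of the same sign as Amotl2, namely 0.68 for Cyr61, 0.55 for Ctgf and 0.37 for Ankrd1 under AM580, and 0.48, 0.84 and 0.57 under V580.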

How the results depend on the processing

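With 2 or 3 libraries per group the design limits what can be called, and genes under about 1 CPM or 1 FPKM, such as Tead4 at P6w, rest on few reads. Over 2934 refits of the members, no called value changed its sign. Of those that changed a setting, 1725 kept their sign and their side of the threshold, 110 lost the call, 53 gained it and 20 changed sign without being called. The call was lost in 71 of the 110 only because a change of at least 2-fold was asked for. DESeq2 kept 44 of 45 stage results, losing Tead4 in E16.5 against E12.5. Library weights, the length term for FPKM and edgeR on the recovered reads were chosen after the data had been seen. The 10x levels over all cells moved from 97.8 to 92.9 CPM for Wwtr1 and from 129 to 122 for Amotl2 when cells were weighted equally. At the finer clustering the highest Tead1 level was 526, against 592.

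The number of called members depended on these choices, and the cause was not tested. Requiring a change of at least 2-fold left 4 for P6w against E12.5 and Con at 48 h against 24 h, 3 for P6w against E16.5, D4 against E12.5_GC and D6 against E12.5_GC, 2 for E16.5 against E12.5 and D10 against E12.5_GC and 1 for D8 against E12.5_GC, and 0 for D6 against D4, D8 against D6, D10 against D8, Vc against Con at 24 h, AM580 against Con at 24 h, V580 against Con at 24 h, V580 against AM580 at 24 h, AM580 against Con at 48 h, V580 against Con at 48 h, V580 against AM580 at 48 h, AM580 effect at 48 h minus 24 h and V580 effect at 48 h minus 24 h. Limma library weights gave 4 in place of 7 for D10 against E12.5_GC, 7 in place of 4 for D6 against D4, 9 in place of 4 for D8 against D6, 6 in place of 1 for D10 against D8, 0 in place of 2 for Vc against Con at 24 h and 1 in place of 0 for Vc against Con at 48 h. Fitting only the groups compared gave 8 in place of 4 for D8 against D6, 4 in place of 1 for D10 against D8, 1 in place of 2 for Vc against Con at 24 h, 0 in place of 3 for AM580 against Con at 24 h and 1 in place of 0 for Vc against Con at 48 h, and the length term gave 2 in place of 1 for D10 against D8 and 2 in place of 0 for Vc against Con at 48 h. Over the libraries left out, the number of called members was 4 to 6 for E16.5 against E12.5, 5 to 8 for P6w against E16.5, 1 to 2 for D10 against D8, 1 to 2 for Vc against Con at 24 h, 0 to 2 for AM580 against Con at 24 h, 2 to 3 for V580 against Con at 24 h, 1 to 1 for V580 against AM580 at 24 h, 3 to 5 for V580 against Con at 48 h and 1 to 2 for V580 against AM580 at 48 h.

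Values that changed sign under a setting all missed the threshold on both sides. With the GC term they were Tead2 -0.12 and Tead3 -0.21 in E13.5 against E12.5. With the length term they were Tead3 -0.071 and Yap1 -0.14 in E16.5 against E13.5, Tead2 -0.022 in P6w against E16.5, Yap1 -0.075 in D6 against E12.5_GC and Tead3 -0.0083 in Con at 48 h against 24 h, and with the lane term Lats2 0.073 in E16.5 against E12.5, Lats2 0.034 in P6w against E12.5 and Tead2 -0.19 and Lats1 0.14 in P6w against E16.5. Median-of-ratios scaling gave Tead2 -0.033 and Lats2 -0.0062 in D4 against E12.5_GC and Tead3 0.0048 in V580 effect at 48 h minus 24 h. Library weights gave Tead2 -0.0082 and Lats2 -0.065 in D4 against E12.5_GC and Tead1 -0.0087 in D10 against D8. Leaving out 1 library changed the sign of 62 values in 39 results, all uncalled, whose ranges follow. Among the stages these were Wwtr1 (-0.18 to 0.31) and Tead3 (-0.25 to 0.32) in E13.5 against E12.5, Lats2 (-0.26 to 0.072) in E16.5 against E12.5, Tead3 (-0.087 to 0.48) in E16.5 against E13.5 and Tead2 (-0.19 to 0.34) and Lats1 (-0.46 to 0.14) in P6w against E16.5. Among the V580 days these were Tead2 (-0.023 to 0.07), Lats2 (-0.085 to 0.24), Yap1 (-0.00048 to 0.13) and Lats1 (-0.48 to 0.028) in D4 against E12.5_GC, Tead2 (-0.088 to 0.0053) and Yap1 (-0.026 to 0.11) in D6 against E12.5_GC and Amotl2 (-0.045 to 0.0056) in D6 against D4. Among the treatments these were Tead3 (-0.048 to 0.082) in Con at 48 h against 24 h, Tead1 (-0.28 to 0.058), Tead3 (-0.0024 to 0.13), Yap1 (-0.0067 to 0.078), Lats2 (-0.046 to 0.12), Amotl2 (-0.027 to 0.042) and Wwtr1 (-0.18 to 0.0018) in Vc against Con at 24 h, Tead4 (-0.061 to 0.028), Tead1 (-0.063 to 0.27), Lats1 (-0.044 to 0.076) and Tead3 (-0.17 to 0.03) in AM580 against Con at 24 h, Lats1 (-0.14 to 0.094), Tead1 (-0.089 to 0.24) and Tead3 (-0.12 to 0.0097) in V580 against Con at 24 h, Tead3 (-0.085 to 0.12), Tead1 (-0.074 to 0.02) and Lats1 (-0.16 to 0.078) in V580 against AM580 at 24 h, Tead3 (-0.036 to 0.022), Tead4 (-0.066 to 0.18) and Tead2 (-0.0082 to 0.1) in Vc against Con at 48 h, Wwtr1 (-0.031 to 0.045) in V580 against Con at 48 h, Tead4 (-0.0053 to 0.17) in V580 against AM580 at 48 h, Tead2 (-0.11 to 0.013) and Lats1 (-0.0058 to 0.13) in AM580 effect at 48 h minus 24 h and Tead3 (-0.08 to 0.05) and Tead4 (-0.091 to 0.15) in V580 effect at 48 h minus 24 h.

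The replicate number as a block kept 201 of 207 results. It called 2 members in D10 against D8, gaining Tead3 (adjusted p = 0.0427), and gained Amotl2 in P6w against E16.5 (0.0408). It lost Tead4 in D10 against E12.5_GC (0.0519) and in D6 against D4 (0.0519), Tead2 under AM580 at 24 h (0.0546) and Tead4 under V580 at 24 h (0.0565), all by limma or edgeR. With the length term as well, the block gave Tead3 -0.066 and Yap1 -0.14 in E16.5 against E13.5 and Tead2 -0.0071 in P6w against E16.5. Deviations of libraries with the same number correlated at -0.04 to 0.07 in the stages (0 of 12 correlations above 0.1), -0.43 to 0.39 in the V580 days (9 of 30) and -0.42 to 0.21 in the treatments (12 of 56). With 2 libraries per group both correlations of a pair of groups are equal by construction, so the stages and treatments count each value 2 times. Of the contrasts with 3 pairs, only D4 against E12.5_GC had every pair above 0.1 (0.12, 0.29 and 0.34), and there the block called 5 members, as without it. In the others the samples share only a number.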
